A study of Mus musculus with 4 samples.

Results

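Transcripts of 10 genes of the inflammasome and of pyroptosis were followed in kidneys of pristane-injected mice, namely Nlrp6, Nlrp3, Aim2, Pycard, Casp1, Casp4, Gsdmd, Gsdme, Il1b and Il18. They were listed by name and function, with no threshold on their values, out of the 54532 genes of the count files, although earlier results of these data were known when the list was made. Of the 10 genes, 9 passed the low-count filter and were among the 14908 genes tested. RNA came from whole kidneys of wild-type mice (WT) and of Zbp1-/- mice (ZBP1-KO), with 2 libraries per genotype. At an age of 8 weeks all mice, described by the study as female and of C57BL/6J background, were injected intraperitoneally with 500 μL of pristane, an oil used to provoke lupus-like disease. Kidneys were collected 8 months after the injection. The ZBP1-KO line was made with CRISPR-Cas9 by removing exon 2 to exon 8 of Zbp1 from the germline, so that the gene was altered in every cell type of the kidney, and both genotypes had received pristane. Kidneys without pristane were not analysed here.

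Inflammasomes are protein platforms that form in the cytosol when a sensor such as NLRP3, NLRP6 or AIM2 meets danger signals, microbial products or DNA. The adaptor ASC, encoded by Pycard, links the sensor to caspase-1, which matures IL-1β and IL-18 and cuts gasdermin D, whose freed end opens pores in the plasma membrane. Mouse caspase-11, encoded by Casp4, binds bacterial lipopolysaccharide directly and also cuts gasdermin D, whereas gasdermin E is cut by caspase-3. ZBP1 senses Z-form nucleic acids and can feed into necroptosis, apoptosis and, in some infected cells, the NLRP3 inflammasome, and the comparison of genotypes asked how these transcripts differ in the lupus-like kidney when ZBP1 is missing.

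Total counts ran from 9878776 to 12921925 per library. Mitochondrially encoded genes took 49.5% of them in ZBP1-KO 1 and 57.4% to 61.5% in the other libraries. A gene with 0 counts may have had up to 3 counts, equal to 0.221 to 0.323 CPM (counts brought to a common library size with TMM factors). The 10 genes together took 2505 to 3358 counts per library. Kidney markers were present in all libraries, with summed levels of 7 proximal tubule markers at 7783 to 10848 CPM and 5 podocyte markers at 102 to 150 CPM. Most of the proximal tubule sum was Kap. Without Kap the sums were 1870 and 2218 CPM in WT against 1446 and 2209 in ZBP1-KO. Zbp1 had 94 and 125 counts in WT 1 and WT 2, 18 in ZBP1-KO 1 and 0 in ZBP1-KO 2, so that the ZBP1-KO libraries were lowest. Its log2 fold change of -3.64 ± 0.89 (SE) was not called by edgeR (adjusted p = 0.999), while the exact test of edgeR called it (adjusted p = 0.0110). The library ZBP1-KO 1 thus held some Zbp1 counts, and the part of the gene they came from could not be read from the gene-level counts. With 2 libraries a side, the smallest two-sided p of exact permutation is 0.333, and the tests given here therefore rest on models that share information on the spread across genes. Only the spread between these libraries enters the p-values, since the labels do not state that each library was made from a separate animal.

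For none of the 10 genes did a difference between genotypes pass the test. Of the 9 tested, 0 were called in either direction by the edgeR quasi-likelihood test at a Benjamini-Hochberg adjusted p under 0.05, where 0.0134% of all tested genes were called. At an unadjusted p under 0.05, 0 of the 9 passed, against 3.88% of all tested genes. Among them the smallest, that of Gsdmd, was 0.214, and all adjusted p-values were 0.999 in edgeR. The exact test of edgeR, DESeq2 and limma-voom also called 0 of the 9, with none below 0.05 before adjustment in each. The 9 genes had a median log2 fold change of 0.02, beside -0.0061 for all tested genes, with 5 genes above 0 and 4 below. The genotypes did not overlap for 3 of the 9 genes (Gsdmd and Casp4 above, Gsdme below), a split seen in 32.3% of all tested genes. In bulk kidney RNA, fewer cells of a type and less RNA per cell cannot be told apart.

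**Figure D1:**
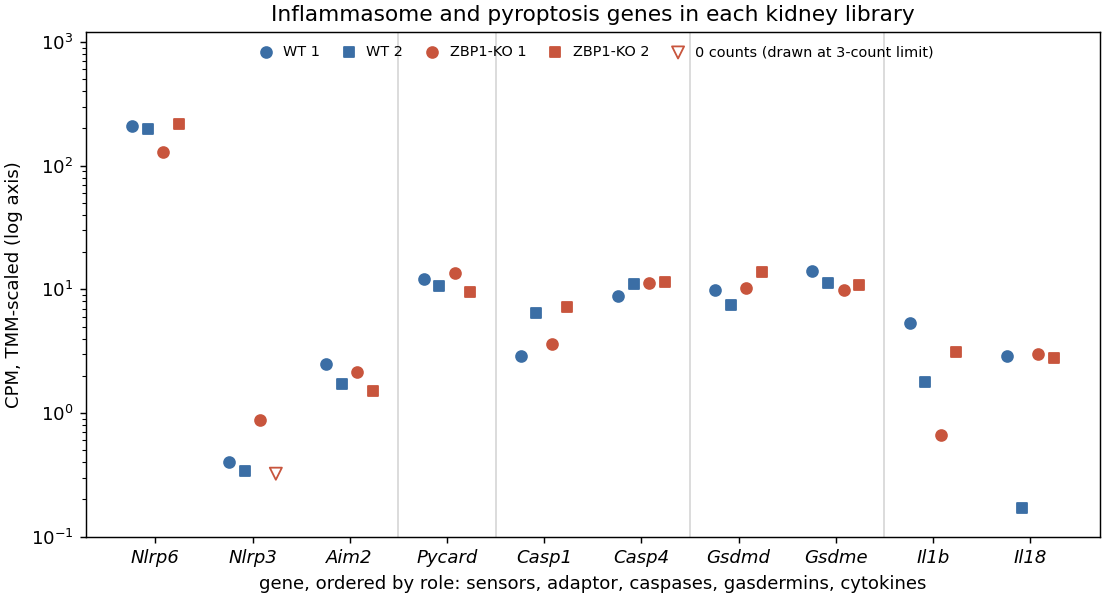
Level of each gene in each library, in TMM-scaled CPM on a log axis, with genes ordered by role; circles are replicate 1 and squares replicate 2, blue for WT and red for ZBP1-KO, and the open triangle marks 0 counts, drawn at the limit of 3 counts. Nlrp6 stands at 129 to 216 CPM in all 4 libraries, far above the other genes, and the points of the genotypes overlap for most genes.

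The sensors were examined first. Nlrp6 (ENSMUSG00000038745, chromosome 7, 140920902 to 140929192, plus strand, GENCODE M21, GRCm38) encodes a sensor studied mostly in intestinal and other epithelia. It had 2623 counts in WT 1, 2306 in WT 2, 1752 in ZBP1-KO 1 and 2001 in ZBP1-KO 2, or 211, 197, 129 and 216 CPM. WT libraries were alike, and the ZBP1-KO libraries fell on both sides of them, with ZBP1-KO 1 as the low one. The log2 fold change was -0.25 ± 0.23 (SE, n = 2 each), with a 95% interval of the fold from 0.595 to 1.20. Leaving out ZBP1-KO 1 turned it to 0.07. Without ZBP1-KO 2 it was -0.67, with an unadjusted p of 0.00786 in edgeR that did not pass adjustment (adjusted p = 0.335). Nlrp6 made up 69.9% to 79.5% of the counts of the 10 genes, and its mean level exceeded that of 98.3% of the tested genes.

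Nlrp3 (ENSMUSG00000032691, chromosome 11, 59541568 to 59566956, plus strand) encodes the sensor of potassium loss and membrane stress found mainly in myeloid cells. It had 5 and 4 counts in WT against 12 and 0 in ZBP1-KO, or 0.402, 0.342, 0.885 and 0 CPM, where the count of 0 allows up to 0.323 CPM. These values did not pass the filter. Fitted without a filter, Nlrp3 had a log2 fold change of 0.26 ± 2.63 (SE, edgeR adjusted p = 0.998), so that this depth could not show a difference. Aim2 (ENSMUSG00000037860, chromosome 1, 173350879 to 173466040, plus strand), the sensor of double-stranded DNA, had 31 and 20 counts in WT against 29 and 14 in ZBP1-KO. In CPM this was 2.49 and 1.71 against 2.14 and 1.51, so that replicates of 1 genotype differed more than the genotypes did. Its log2 fold change of -0.20 ± 0.89 (SE) had an interval of the fold from 0.227 to 3.34. The sign was positive without WT 1 (0.09) and without ZBP1-KO 2 (0.02).

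Pycard (ENSMUSG00000030793, chromosome 7, 127989708 to 127993867, minus strand), the adaptor, measured 12.2 and 10.7 CPM in WT against 13.6 and 9.59 in ZBP1-KO, from 152, 125, 185 and 89 counts. The ZBP1-KO libraries took the highest and the lowest place, with both WT libraries between them. The log2 fold change was 0.02 ± 0.33 (SE), and the interval of the fold ran from 0.619 to 1.67. It became -0.076 without WT 2 and -0.26 without ZBP1-KO 1. Of the 3800 annotated exonic bases of Pycard, 485 overlap the antisense gene Gm45205, and the strand setting of the counting is not given in the sources used here although the libraries are described as strand-specific, so reads from that stretch may not be assigned with certainty.

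The caspase genes Casp1 and Casp4 lie next to each other on chromosome 9 (5298517 to 5307265 and 5308828 to 5336783, both plus strand). Casp1 (ENSMUSG00000025888) had 36 and 75 counts in WT against 49 and 67 in ZBP1-KO, or 2.90, 6.41, 3.61 and 7.22 CPM. Replicates differed 2.22-fold in WT and 2.00-fold in ZBP1-KO, more than the genotypes did, and the log2 fold change was 0.21 ± 0.59 (SE). Its sign changed to -0.26 without WT 1 and to -0.37 without ZBP1-KO 2. Casp4 (ENSMUSG00000033538) had 110 and 129 counts in WT against 154 and 107 in ZBP1-KO, or 8.85, 11.03, 11.4 and 11.5 CPM. Both ZBP1-KO libraries were above both WT libraries by this measure, although ZBP1-KO 1 exceeded WT 2 only slightly. The log2 fold change of Casp4 was 0.20 ± 0.33 (SE), an interval of the fold from 0.701 to 1.89, and it ran from 0.04 to 0.36 with 1 library left out.

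Among the gasdermins, Gsdmd (ENSMUSG00000022575, chromosome 15, 75862327 to 75867408, plus strand), the main executor of pyroptosis, was 8.75 ± 1.73 CPM in WT against 12.1 ± 2.45 in ZBP1-KO (SD, n = 2 each). The libraries held 124 and 88 counts in WT (9.97 and 7.53 CPM) and 140 and 128 in ZBP1-KO (10.3 and 13.8 CPM). The groups did not overlap, but ZBP1-KO 1 lay close to WT 1. The log2 fold change was 0.46 ± 0.35 (SE), with an interval of the fold from 0.811 to 2.32, and it stayed between 0.23 and 0.67 with 1 library left out. Gsdme (ENSMUSG00000029821, chromosome 6, 50188888 to 50263862, minus strand), the gasdermin cut by caspase-3, was 12.6 ± 1.91 CPM in WT against 10.4 ± 0.707 in ZBP1-KO (SD, n = 2 each). From 174 and 132 counts in WT against 134 and 101 in ZBP1-KO, the values were 13.99 and 11.3 against 9.88 and 10.9 CPM, again without overlap and with WT 2 close to ZBP1-KO 2. The log2 fold change was -0.29 ± 0.32 (SE), from -0.44 to -0.13 with 1 library left out. The estimates of the gasdermin pair thus had opposite signs, and neither passed the test (edgeR adjusted p = 0.999 for both).

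Among the 9 tested genes, the widest ratios between WT replicates were those of the cytokines. Il1b (ENSMUSG00000027398, chromosome 2, 129364570 to 129371139, minus strand), the pyrogenic cytokine, had 67 and 21 counts in WT against 9 and 29 in ZBP1-KO, or 5.39, 1.80, 0.664 and 3.12 CPM. Replicates differed 3.00-fold in WT and 4.71-fold in ZBP1-KO, and the groups overlapped. Of its exonic bases, 25 are shared with the antisense gene Il1bos. Its log2 fold change of -0.95 ± 0.90 (SE) had an interval of the fold from 0.133 to 2.02. This estimate was 0.05 without WT 1, the highest library, and -0.21 without ZBP1-KO 1, the lowest. Without ZBP1-KO 2 it was -2.43. Il18 (ENSMUSG00000039217, chromosome 9, 50554827 to 50581840, plus strand), a cytokine that many epithelia store as a precursor, had 36 and 2 counts in WT against 41 and 26 in ZBP1-KO, or 2.90, 0.171, 3.02 and 2.80 CPM. Only WT 2 stood apart, below its limit of 3 counts (0.257 CPM), and the other 3 libraries were alike. The ratio of WT 1 to WT 2 was 16.9, with a 95% counting interval from 4.36 to 145. Accordingly the log2 fold change of Il18, 0.92 ± 1.06 (SE), was 0.0028 without WT 2. Without WT 1, with only the 2 counts of WT 2 on the WT side, it was 4.00 (edgeR unadjusted p = 0.0400, adjusted p = 1.00). Both cytokine estimates thus depended on single libraries, and that of Il18 also on the model, with 1.84 in limma-voom and 1.65 with a replicate block.

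**Figure D2:**
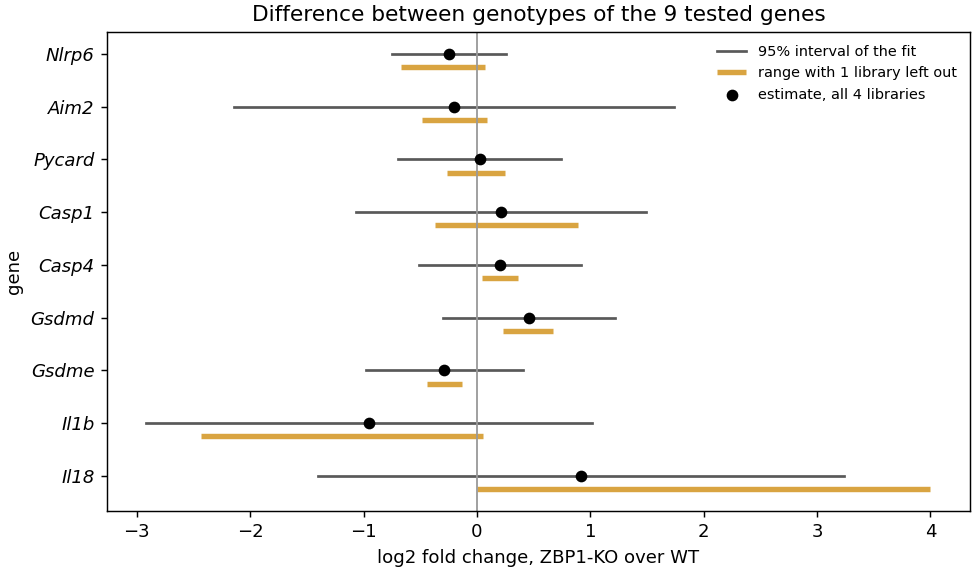
Log2 fold change of ZBP1-KO over WT for the 9 tested genes; points are edgeR estimates from all 4 libraries, grey lines their 95% intervals and orange lines the range when 1 library is left out. All 9 intervals cross 0, and the orange ranges lie on 1 side of 0 for Casp4, Gsdmd, Gsdme and, barely, Il18.

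The precision of these comparisons differed among the genes. Standard errors ran from 0.23 for Nlrp6 to 1.06 for Il18 on the log2 scale. For 4 of the 9 genes, Nlrp6, Pycard, Casp4 and Gsdme, the 95% interval of the fold stayed within a 2-fold change in either direction. For Gsdmd, Casp1, Aim2, Il1b and Il18 the interval reached beyond 2-fold, so that a change of that size lay within it. These intervals are not adjusted for the number of genes.

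To compare levels between genes, CPM was divided by the length of all annotated exons in kb. Nlrp6 reached 37.0 ± 7.90 CPM per kb (SD over 4 libraries), 8.46 times the mean of Gsdmd, the next gene, at 4.38 ± 1.08 CPM per kb. Casp1, Pycard, Casp4, Il18 and Il1b followed at 3.36, 3.04, 2.88, 2.16 and 1.44 CPM per kb, and from Gsdmd to Gsdme (0.903) each gene overlapped its neighbour in the range of the 4 libraries. Aim2 (0.561 CPM per kb) lay below Gsdme without overlap, and Nlrp3 (0.100 CPM per kb) below Aim2 without overlap. The length used mattered in the middle of this order. With the longest principal transcript of each gene, Casp4 came next to Nlrp6 at 7.45 CPM per kb and Gsdme took place 4 with 4.601 CPM per kb, since its annotated exons add up to 12742 bases and its principal transcript to 2502. Nlrp6 remained first (42.4 CPM per kb), and Aim2 and Nlrp3 last (0.691 and 0.101 CPM per kb), by this length too. Among the sensors, the transcript levels per length thus followed the order Nlrp6, Aim2, Nlrp3 by both lengths, with no overlap between libraries.

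**Figure D3:**
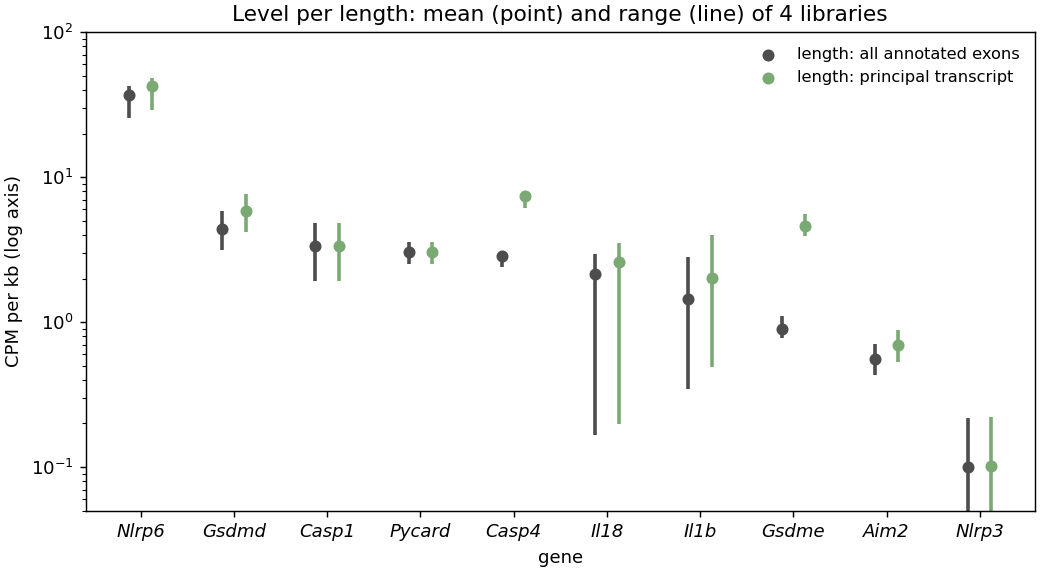
Level per length of the 10 genes in CPM per kb on a log axis; points are means and lines the range of the 4 libraries, in grey per kb of all annotated exons and in green per kb of the longest principal transcript, and the range of Nlrp3 runs down to 0. Nlrp6 leads with both lengths, while Casp4 and Gsdme move up with the principal transcript.

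The high level of Nlrp6 was a feature of every library, and the 250 bases before its RefSeq start site (GRCm38.p6, chr7:140920652-140920901, plus strand) are printed here as the promoter window of the most abundant transcript. The same window of Casp4 (chr9:5308599-5308848, plus strand), a gene induced in infection, is shown beside it. Capitals mark matches to the NF-kB consensus, of which Nlrp6 has none, and both are written 5′ to 3′.
Nlrp6: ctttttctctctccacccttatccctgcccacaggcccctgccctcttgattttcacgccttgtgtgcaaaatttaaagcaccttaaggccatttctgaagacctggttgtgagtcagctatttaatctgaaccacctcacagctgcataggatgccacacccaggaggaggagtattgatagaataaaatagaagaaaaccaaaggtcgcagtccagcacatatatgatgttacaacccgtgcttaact
Casp4: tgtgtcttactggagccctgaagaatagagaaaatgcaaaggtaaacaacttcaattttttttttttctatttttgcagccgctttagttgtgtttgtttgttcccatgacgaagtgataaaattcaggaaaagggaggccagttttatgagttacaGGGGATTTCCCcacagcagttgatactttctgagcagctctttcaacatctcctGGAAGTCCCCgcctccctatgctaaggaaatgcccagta
RefSeq windows were matched for 9 of the 10 genes, all but Gsdmd. In these 250-base windows, searched on both strands, the interferon-stimulated response element core (ISRE, GAAA followed by any 2 bases and GAAA) was found in 0 of 9 genes and in 3.46% of 27018 genes with a window. The gamma-activated site (GAS, TTCNNNGAA) was found in 0 of 9 and in 8.13% of all genes. The NF-kB consensus was found in 2 of 9, Casp4 and Nlrp3, and in 8.24% of all genes. Each match is a description of letters in a window, and no match says nothing about binding elsewhere.

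Other genes of the pathway, a list of 72 genes matched by symbol (2 more, Mnda and Pyhin1, had no match), were then counted. Of 57 tested, 0 were called in either direction by edgeR over all genes, and 9 were higher and 1, Zbp1 itself, lower in ZBP1-KO at an unadjusted p under 0.05. Over all tested genes, 3.88% had such a p in either direction and 1.91% were higher. Of the 9, 7 were interferon-linked regulators, given last. The median of the 57 on the log2 scale was 0.08, with 34 above 0 and 23 below. DESeq2 and limma-voom also called 0 of the 57, with 6 and 11 at an unadjusted p under 0.05. Of the 14908 genes tested, 466 and 594 had such a p in these 2 fits. The exact test of edgeR called Zbp1 (log2 fold change -3.67, adjusted p = 0.0110).

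Among other sensors and co-sensors, 11 of 17 were tested, with a median of -0.05. Nek7, a kinase that binds and licenses NLRP3, measured 40.7 and 43.9 CPM in WT against 46.6 and 43.7 in ZBP1-KO, a log2 fold change of 0.10. Its partner Nlrp3 lay below 1 CPM in every library. Ifi203, a relative of Aim2, had 26.4 and 36.1 CPM in WT against 44.3 and 48.8 in ZBP1-KO, a difference of 0.58 on the log2 scale (edgeR unadjusted p = 0.0245). The Naip and Ifi200 genes have close copies in the mouse genome, so their counts of unique reads are uncertain. Mefv, Nlrp1a and Nlrp12, sensors of myeloid or other cells, had at most 6 counts in any library.

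Other caspases and death adaptors, of which 8 of 8 were tested, had a median of -0.02, and 0 passed an unadjusted p under 0.05 in edgeR. Casp8, the initiator caspase that links death receptors, necroptosis and pyroptosis, was 29.2 ± 0.0770 CPM in WT against 22.1 ± 3.01 in ZBP1-KO (SD, n = 2 each), or -0.40 on the log2 scale (edgeR unadjusted p = 0.107). Ripk1, a kinase of the same complexes, was 22.3 ± 0.0927 CPM in WT against 18.3 ± 0.893 in ZBP1-KO (SD, n = 2 each), or -0.29 on the log2 scale (edgeR unadjusted p = 0.262). Both were below WT in both ZBP1-KO libraries without passing the test.

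Of other gasdermins and membrane rupture genes, 4 of 9 were tested, with a median of -0.34 and 0 at an unadjusted p under 0.05 in edgeR. Gsdmc2 was measured at 25.4 CPM on average, above Gsdmd on the CPM scale and also per kb of annotated exons (10.98 against 4.38 CPM per kb). Its log2 fold change was 0.07. Gsdmc2 has near-identical copies, including Gsdmc3, so the split of unique reads between them is uncertain. Gsdmc3 had 18.3 and 22.4 CPM in WT against 13.6 and 14.97 in ZBP1-KO, without overlap, or -0.51 on the log2 scale (edgeR unadjusted p = 0.0791). Gsdma, Gsdma2, Gsdma3 and Gsdmc had at most 2 counts in any library. Ninj1, which ruptures the plasma membrane at the end of pyroptosis, had 53.8 and 46.3 CPM in WT against 36.7 and 47.1 in ZBP1-KO, a log2 fold change of -0.26.

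In the IL-1 family and its receptors, 9 of 13 were tested, with a median of 0.03 and 0 at an unadjusted p under 0.05 in edgeR. Sigirr, a receptor that dampens IL-1 and Toll-like receptor signals, was the most abundant (32.3 CPM, log2 fold change -0.15), followed by the adaptor Myd88 (16.3 CPM, 0.24). Il1a had 5 counts in WT 1 and 0 in the other libraries, so the other IL-1 cytokine was at or near the limit of detection. Among triggers and regulators, 14 of 14 were tested, with a median of 0.09. Txnip, which ties oxidative stress to NLRP3, was the most abundant at 223 CPM (log2 fold change -0.02), and Hmgb1, a nuclear protein released from dying cells, had 56.0 CPM (-0.09). Nfkb1, a subunit of the factor that primes Nlrp3 and Il1b transcription, had 25.4 and 31.9 CPM in WT against 39.9 and 44.1 in ZBP1-KO, a log2 fold change of 0.55 and an unadjusted p of 0.0271 in edgeR.

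**Figure D4:**
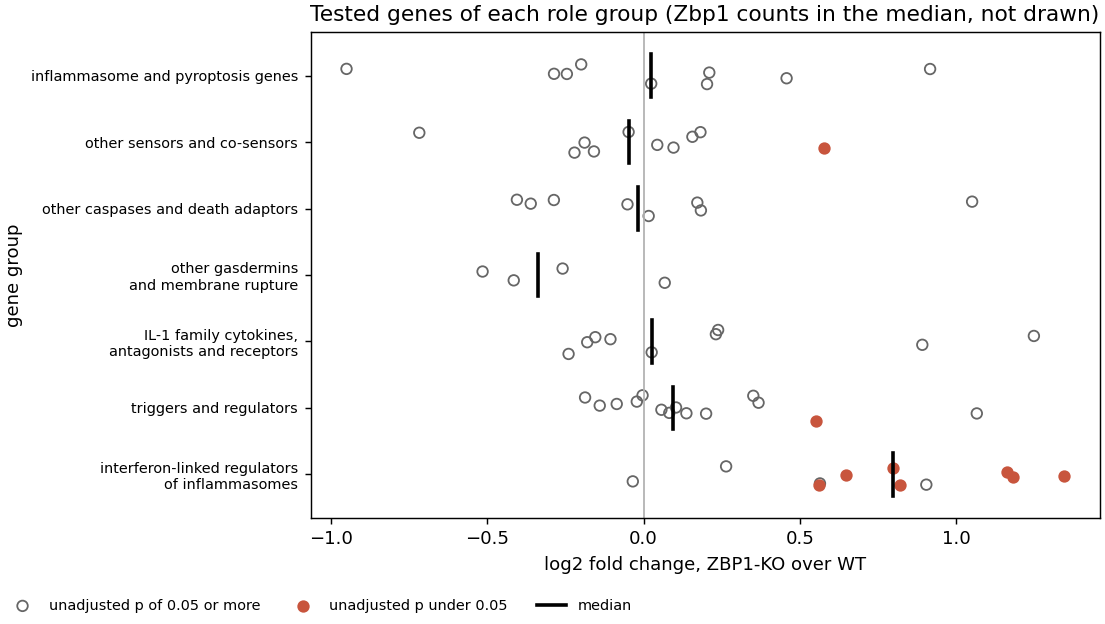
Log2 fold change of ZBP1-KO over WT for each tested gene, by role group; filled points have an unadjusted edgeR p under 0.05, none of the drawn genes was called after adjustment, and black bars are group medians; Zbp1 counts in its median and is not drawn. The 9 tested genes followed here scatter around 0 with a median of 0.02, and 7 of the 9 filled points belong to the interferon-linked regulators, whose median is 0.80.

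The interferon-linked regulators of inflammasomes, made of IRF factors and of guanylate-binding and immunity-related GTPases, were counted last. All 11 were tested, 0 were called by edgeR, and 7 had higher estimates in ZBP1-KO at an unadjusted p under 0.05 (Irf1, Gbp2, Gbp3, Gbp5, Gbp7, Irgm1 and Igtp), where 1.91% of all tested genes were higher by this measure. The count was 4 of 11 with DESeq2 and with the robust fit of edgeR, and 8 of 11 with limma-voom and without a filter. The genotypes did not overlap for 4 of 11, Irf1, Gbp3, Gbp5 and Gbp7, a split seen in 32.3% of all tested genes. Gbp5 measured 4.34 and 9.84 CPM in WT against 19.1 and 16.8 in ZBP1-KO, a log2 fold change of 1.34 ± 0.39 (SE) with an edgeR unadjusted p of 0.00475 and an adjusted p of 0.999. This estimate ran from 0.86 without WT 1 to 2.04 without WT 2. Igtp measured 11.4 and 41.6 CPM in WT against 85.5 and 33.9 in ZBP1-KO, a log2 fold change of 1.18 ± 0.50 (SE), and its groups overlapped. The estimate was 0.35 without ZBP1-KO 1, 0.52 without WT 1 and 2.38 without WT 2. On chromosome 11 the annotated span of Igtp (58199556 to 58207591) overlaps that of Irgm2 (58199618 to 58222782) on the same strand. Exons shared by these genes were not checked, so the split of their reads is uncertain. The median of the 11 genes was 0.80 with all libraries, 0.28 without ZBP1-KO 1 and 0.44 without WT 1. It was 1.15 without WT 2 and 1.26 without ZBP1-KO 2. Whether this group differed from the 10 followed genes was not tested.

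The windows of Gbp5 (chr3:142496684-142496933, plus strand) and Igtp (chr11:58199306-58199555, plus strand) are printed because most genes of this group held the searched letters. Capitals mark matches to the ISRE core, the GAS and the NF-kB consensus.
Gbp5: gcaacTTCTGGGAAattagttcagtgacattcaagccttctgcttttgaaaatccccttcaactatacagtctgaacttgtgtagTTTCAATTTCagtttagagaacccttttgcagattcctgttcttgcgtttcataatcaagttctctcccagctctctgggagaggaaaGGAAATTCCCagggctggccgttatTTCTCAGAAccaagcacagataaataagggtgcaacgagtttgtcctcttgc
Igtp: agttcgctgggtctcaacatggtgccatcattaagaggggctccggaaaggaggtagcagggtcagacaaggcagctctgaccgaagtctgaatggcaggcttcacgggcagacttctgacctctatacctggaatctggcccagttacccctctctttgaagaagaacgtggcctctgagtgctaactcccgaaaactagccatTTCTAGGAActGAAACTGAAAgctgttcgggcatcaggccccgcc
In the 250-base windows of the 11 interferon-linked genes, the ISRE core was found in 9 and the GAS in 8, where 3.46% and 8.13% of all genes hold them. These genes were listed for their known link to interferon. With so few windows, nothing is read from the 0 of 9 among the followed genes.

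Markers of other cell types were read beside these results. The summed level of 10 macrophage and dendritic cell markers was 558 and 495 CPM in WT against 737 and 655 in ZBP1-KO, with 8 of 10 genes above 0 in log2 fold change. The separation of these sums rested on Cd74, the invariant chain of MHC class II, without which they were 368 and 234 CPM in WT against 336 and 346 in ZBP1-KO and overlapped. The sum of 10 T cell markers was 15.4 and 10.8 CPM in WT against 29.3 and 21.7 in ZBP1-KO, with 8 of 8 tested genes above 0. Neutrophil markers summed to 25.1 and 5.13 CPM in WT against 8.996 and 12.6 in ZBP1-KO, highest in WT 1 and lowest in WT 2. Il1b, Aim2 and Gsdme were also highest in WT 1, but Il1b and Gsdme were lowest in ZBP1-KO 1 and Aim2 in ZBP1-KO 2. Of the listed neutrophil genes, Ly6g, Mpo and Elane were at 0 in all libraries, while S100a8, S100a9 and Csf3r had counts in each. B and plasma cell markers summed to 139 and 44.0 CPM in WT against 62.9 and 68.8 in ZBP1-KO, so that WT 2 was the lowest, as for Il18 and Gsdmd. Without Jchain, the most abundant of these genes, the sums were 21.6 and 20.4 CPM in WT against 20.2 and 14.7 in ZBP1-KO, and WT 2 was not the lowest. The 8 collecting duct and intercalated cell markers summed to 1163 and 1306 CPM in WT against 954 and 743 in ZBP1-KO, with 5 of the 8 genes below 0 and 3 above. Most of that sum was Aqp2, a water channel of principal cells, and without it the sums were 259 and 245 CPM in WT against 225 and 212 in ZBP1-KO. Of the intercalated cell markers, Atp6v1b1 had a log2 fold change of 0.22, Slc4a1 of 0.08, Foxi1 of 0.0075 and Slc26a4 of -0.033. Podocyte markers summed to 102 and 104 CPM in WT against 129 and 150 in ZBP1-KO, with 5 of 5 genes above 0. Adipocyte markers summed to 80.3 and 110 CPM in WT against 230 and 190 in ZBP1-KO, with Lep at 0 in all libraries. The T cell, podocyte and adipocyte sums thus lay above WT in both ZBP1-KO libraries. The macrophage and dendritic cell sum did so only with Cd74. Gsdmd and Casp4 lay on that side as well. Estimates of Il1b (-0.95), Gsdme (-0.29), Nlrp6 (-0.25) and Aim2 (-0.20) lay below 0. Below 0 were also 5 of 8 collecting duct and intercalated cell markers (3 above) and 5 of 7 proximal tubule markers (2 above). Of the tested B and plasma cell markers 3 were below 0 and 2 above, and of the tested neutrophil markers 3 of 3 were below. Nlrp6 was highest in ZBP1-KO 2, the library with the lowest collecting duct and intercalated cell sum. The part of these cell types in the levels of the followed genes was not tested.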

How the data were processed

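Polyadenylated RNA of whole kidneys was sequenced as read pairs by the authors, who trimmed reads with Trimmomatic, aligned them with HISAT2 to mm10 and counted uniquely mapped pairs per Ensembl gene with featureCounts. The deposited values are raw whole-number counts per gene, 1 file per library. The libraries are described as strand-specific. Program versions, annotation release and the strand setting of the counting are not given in the sources used here. Of 54532 IDs, 54495 matched GENCODE M21. Sample titles gave the genotype and replicate number.

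Counts were filtered with filterByExpr (minimum count 10, minimum total 15), scaled by TMM and tested with glmQLFit and glmQLFTest in edgeR 4.0.16 (R 4.3.3, two-sided, genotype as the only term), with Benjamini-Hochberg adjustment over all 14908 genes. The SE was obtained from the log2 fold change and the F statistic (its size over the root of F), and 95% intervals use the total degrees of freedom of the fit. The count test was also tested on simulated data. The members and lists were chosen with earlier results of these data known. Named were all 10 genes, Zbp1 and, of the other pathway list, genes with an unadjusted p under 0.05 and the 2 most abundant of each role group; further genes were named after their values were seen. Alternatives were RLE and upper quartile factors, no filter or a mean of 1 CPM, a block for replicate number, DESeq2 1.42.0, the edgeR exact test, limma-voom (limma 3.58.1), a robust fit, mitochondrially encoded genes left out, and each library left out. The principal transcript length and marker sums without their most abundant gene were added after seeing the data. The limits for 0 counts and the counting interval of the Il18 ratio cover counting error only, since no molecular identifiers were described.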

Additional observations from a re-analysis of the deposited data

How the results depend on the processing

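With all 4 libraries, the 90 values of single followed genes kept their sign and stayed uncalled under every alternative of scaling, filter, test, block or composition, and 0 of the 9 genes had an unadjusted p under 0.05 in any of these settings. Among the followed genes whose estimate moved by over 1.5 times there, Il18 was 1.84 with limma-voom and 1.65 with the replicate block, and Pycard, near 0 throughout, ran from 0.0047 to 0.043. The median of the tested members ran from 0.0047 to 0.10 there and from -0.037 to 0.10 with 1 library left out. With 1 library left out, where the lone library is assumed to vary like the other group, 8 of 36 values changed sign without being called. Log2 fold changes then ran from -0.48 to 0.087 for Aim2 (above 0 without WT 1 and, at 0.016, without ZBP1-KO 2), from -0.37 to 0.89 for Casp1 (below 0 without ZBP1-KO 2 and, at -0.26, without WT 1) and from -2.43 to 0.053 for Il1b (above 0 without WT 1). They ran from -0.67 to 0.072 for Nlrp6 (above 0 without ZBP1-KO 1) and from -0.26 to 0.24 for Pycard (below 0 without ZBP1-KO 1 and, at -0.076, without WT 2). Members called stayed at 0 throughout, with Il18 at an unadjusted p under 0.05 without WT 1, and Il1b and Nlrp6 without ZBP1-KO 2.

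Over all genes, calls higher and lower in ZBP1-KO were 2 and 0 in the reported fit, 14 and 27 without a filter, 6 and 8 with the exact test, 5 and 4 with DESeq2 and 4 and 3 with limma-voom. There was 1 gene called lower with a mean of 1 CPM, with the robust fit and without mitochondrially encoded genes. Leaving out 1 library gave 0 to 9 higher and 0 to 28 lower. Other pathway genes called were 0 in the reported fit, 3 without a filter (Zbp1, Gbp2 and Igtp), 1 with the exact test (Zbp1), and 0 to 2 with 1 library left out. Without a filter 22065 genes were tested in place of 14908. Of all these shifts in calls, the cause was not tested.

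In the fit with a replicate block, 4 genes were higher and 7 lower, and 0 of the followed genes were called. Libraries of equal number did not deviate together from their group means (Pearson's r = -0.00595 over genes), which gives no support for pairing them.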
